A study of Homo sapiens with 11 samples.

Results

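The cells described here are 1237 of the 16397 cells (7.54%) that passed the cell filters in single-cell RNA sequencing of heart cultures made from H9, an established human embryonic stem cell line. They were chosen by a rule on their own transcripts. A barcode counted as a cell with at least 1000 UMIs (unique molecular identifiers, one per captured transcript), at least 500 genes and at most 30% mitochondrially encoded UMIs. A cell was a member when TNNT2 and MYH6, both sarcomere genes of heart muscle, made up less than 0.15% of its UMIs. It also needed 3 or more UMIs summed over the matrix genes COL8A1, ITGA11, ELN, LOX and LUM, and fewer than 3 over the cartilage genes ACAN, MATN4, COL9A1 and COL9A2. The values that chose the cells are given below as a description and support nothing.

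There were 3 groups, all collected at day 42.5 and all of H9 origin. These were a 2D culture, chambered cardioids (self-organised heart-like spheroids with a cavity) without PD173074, and the same kind of cardioid with PD173074, an inhibitor of FGF receptors. The dose and timing of PD173074, and how many cultures or cardioids entered a sample, are not given in the sources used here. Cells were dissociated enzymatically and captured with 10x Genomics 3′ chemistry, v2 or v3, without a statement of which library used which. The 3, 5 and 3 libraries of the groups shared 99.3% to 99.9% of their barcodes within a group and at most 0.737% between groups, so each group is 1 sample and its libraries are repeat runs. Run 1 was used. No test between groups was possible, and every interval printed is a 95% interval that covers counting error only.

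Fibroblasts and related stromal cells make the interstitial matrix of the heart. They secrete fibrillar collagens, chiefly type I and type III, which lysyl oxidase (LOX) crosslinks and small proteoglycans such as lumican (LUM) and decorin (DCN) space apart. Elastin (ELN), the short-chain collagen COL8A1 and the collagen receptor subunit ITGA11 are typical of matrix-producing and contractile stromal cells, whereas LUM is also made outside this lineage. In the embryo most cardiac fibroblasts arise from the epicardium, where TCF21, TBX18 and WT1 are expressed.

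Members made up 557 of 8204 cells in 2D culture (6.79%, interval 6.25 to 7.36). They made up 151 of 3567 in cardioids without PD173074 (4.23%, interval 3.60 to 4.95) and 529 of 4626 in cardioids with PD173074 (11.4%, interval 10.5 to 12.4). Of the cells below the TNNT2 and MYH6 limit they were 44.7%, 31.1% and 42.6% in that order. The order of the samples changed when every cell of at least 2000 UMIs was thinned to 2000 before the rule was applied. The limit stayed at 3 rule UMIs. The shares were then 6.13%, 2.20% and 3.99%, and 2D culture held the highest. At full depth members had a median of 27, 10 and 8 rule UMIs, so thinning also acted as a stricter limit. What part depth had in the order was not tested. Members had a median of 10935, 9232 and 9771 UMIs, against 4425, 5392 and 6768 over all cells of the samples.

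The rule was met in different ways in the 3 samples. In 2D culture 88.2% of members had a UMI of at least 3 of the 5 genes, against 34.4% in cardioids without PD173074 and 6.24% in cardioids with PD173074. LUM supplied 27.2%, 43.8% and 91.5% of the rule's UMIs in the same order. None of COL8A1, ITGA11, ELN and LOX was detected in 11 members of 2D culture, 73 of cardioids without and 335 of cardioids with PD173074. Members were therefore also described in 2 kinds, a division made after these values were seen. LUM-independent members reached 3 UMIs from COL8A1, ITGA11, ELN and LOX alone, and LUM-dependent members needed their LUM UMIs.

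LUM-independent members were 523 cells of 2D culture (6.37%, interval 5.86 to 6.93), 56 of cardioids without PD173074 (1.57%, interval 1.19 to 2.03) and 69 of cardioids with PD173074 (1.49%, interval 1.16 to 1.88). LUM-dependent members were 34 (0.414%), 95 (2.66%) and 460 cells (9.94%). The share of LUM-independent cells was thus highest in 2D culture, and the intervals of both cardioid samples overlapped. Among LUM-independent members the summed UMIs of COL8A1, ITGA11, ELN and LOX had a median of 18 in 2D culture, 25 in cardioids without and 4 in cardioids with PD173074. In the last sample 55 of the 69 cells (79.7%) had 3 to 5 such UMIs, close to the limit of 3.

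**Figure D1:**
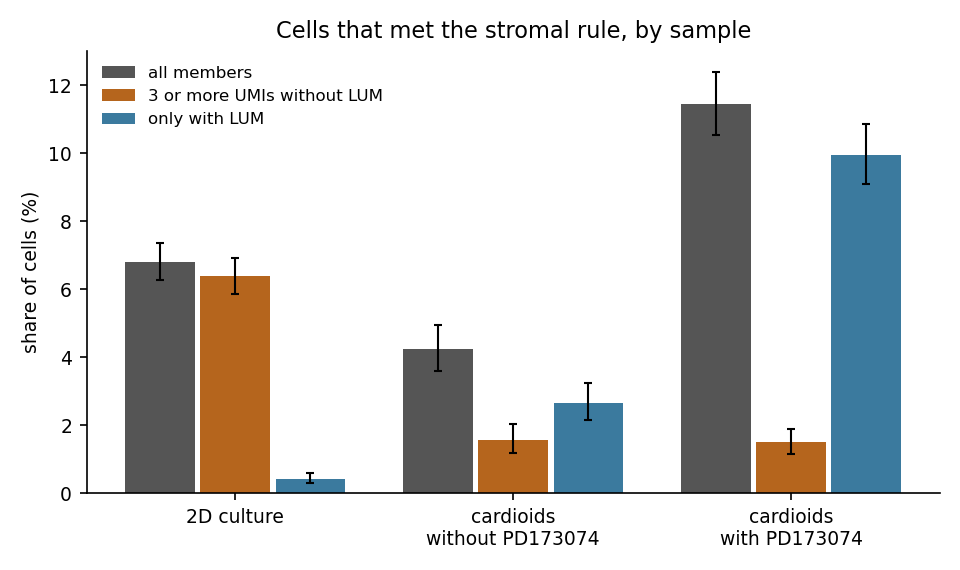
Share of filtered cells (%) that met the rule in each sample, for all members, LUM-independent members and LUM-dependent members; bars start at 0 and error bars are exact binomial 95% intervals from 1 sample each. LUM-dependent members make up 9.94% of the cells of cardioids with PD173074 and 0.414% of those of 2D culture.

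**Figure D2:**
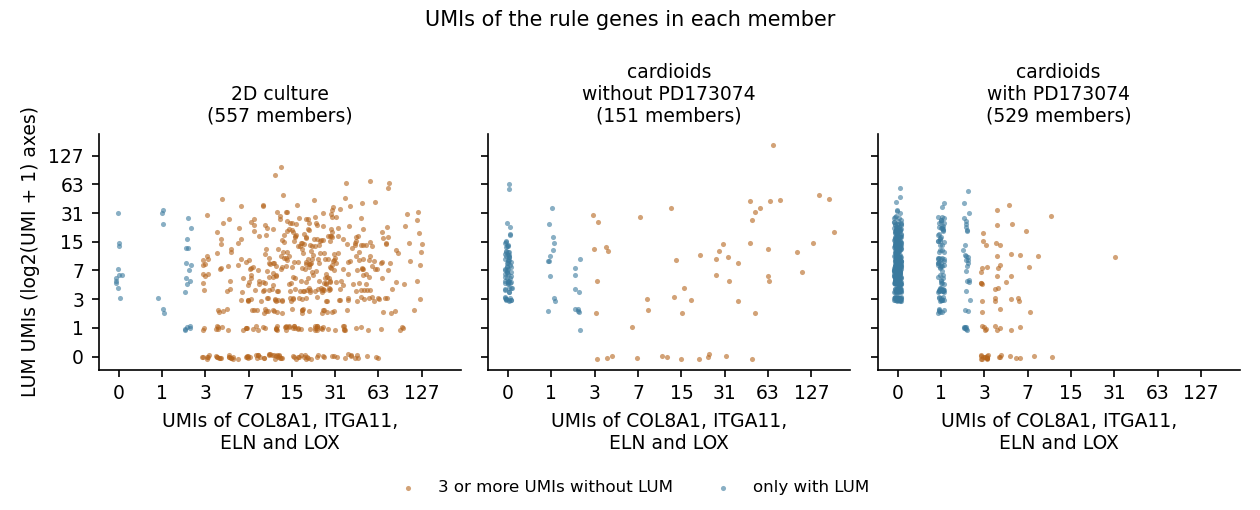
Each point is 1 member, placed by its summed UMIs of COL8A1, ITGA11, ELN and LOX (x axis) and its LUM UMIs (y axis), both on a log2(UMI + 1) scale with a small random offset. Members of 2D culture spread to the right, whereas 335 of the 529 members of cardioids with PD173074 sit at 0 on the x axis.

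The cells next to the limits were as follows. With 2 rule UMIs, just outside, there were 8, 22 and 72 cells in 2D culture, cardioids without and cardioids with PD173074, and with 3, just inside, 14, 13 and 60. Summed COL1A1, which was no part of the rule, stood at 6311, 1527 and 788 CPM (UMIs of a gene per 1000000 UMIs of the summed cells) in the cells just outside and at 7507, 1476 and 1190 CPM in those just inside. COL1A1 was thus lower just outside the limit than just inside in 2D culture and in cardioids with PD173074, and about equal in cardioids without. KRT19, a keratin of simple epithelia, had no UMI on either side in 2D culture, and stood at 1696 CPM outside and 3038 inside in cardioids without and at 1964 outside and 1510 inside in cardioids with PD173074. A further 144, 39 and 71 cells were kept out by the cartilage limit alone.

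COL1A1, the α1 chain of type I collagen, was named beforehand as a marker of these cells but was no part of the rule. In members of 2D culture it stood at 9123 CPM, in cardioids without PD173074 at 5357 and in cardioids with PD173074 at 943, against 357, 225 and 269 CPM in all other cells. Per cell, the lowest, median and highest COL1A1 UMI counts were 0, 79 and 454 in 2D culture, 0, 7 and 682 in cardioids without and 0, 3 and 173 in cardioids with PD173074. The ranges overlapped, and the medians lay far apart. Thinned to 2000 UMIs, 99.3% of members of 2D culture had a COL1A1 UMI, 62.9% of those of cardioids without and 50.1% of those of cardioids with PD173074. Cells above the TNNT2 and MYH6 limit, which serve as the background, had one in 4.80%, 2.71% and 5.72%, at median depths before thinning of 4468, 5513 and 6518 UMIs against 11028, 9232 and 9777 in members. Thinning left out 11, 0 and 2 members below that depth. Thinned likewise, cartilage-gene cells, described below, had a COL1A1 UMI in 92.9%, 88.5% and 88.5%. COL1A1 detection thus did not single out members among cells with matrix genes. Without thinning the shares with COL1A1 were 99.8%, 78.1% and 77.9% in members and 9.07%, 7.24% and 15.3% in the background cells.

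Within the LUM-independent kind COL1A1 was at 9222, 9250 and 2015 CPM in 2D culture, cardioids without and cardioids with PD173074. Within the LUM-dependent kind it was at 6566, 814 and 741 CPM. The low level of the whole set in the cardioids thus came with the LUM-dependent cells, and in cardioids with PD173074 it was also low in the LUM-independent ones. The 34 LUM-dependent cells of 2D culture stood near the other members of that sample. COL1A2, the partner chain, was at 8561, 4584 and 817 CPM over all members, the same order. COL3A1, the chain of type III collagen, was at 2577, 1944 and 1966 CPM and DCN at 502, 391 and 353 CPM, so these spread far less between samples.

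Genes of other lineages moved with the kind in the cardioids. KRT19 was at 13.0, 156 and 1047 CPM in LUM-independent members of 2D culture, cardioids without and cardioids with PD173074, and at 89.4, 3118 and 2935 CPM in LUM-dependent ones. In 2D culture 1 of the 34 LUM-dependent cells held 20 KRT19 UMIs. There KRT19 was detected in 5.88% of LUM-dependent and 8.22% of LUM-independent members. EPCAM, an epithelial adhesion molecule, was at 8.91, 32.4 and 125 CPM and at 34.1, 440 and 340 CPM in the same order. GABRP, a GABA receptor subunit of epithelia, had no UMI in members of 2D culture and was at 404 and 1195 CPM in members of cardioids without and with PD173074. VTCN1, an immune checkpoint ligand that epithelia express, had none in 2D culture and stood at 149 and 312 CPM. HAND1, a transcription factor of heart and extraembryonic mesoderm, was at 1617 and 832 CPM in LUM-dependent members of the 2 cardioid samples and at 2.97 CPM in LUM-independent members of 2D culture.

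The 11 genes of the epithelial list summed to 641, 5110 and 7619 CPM in members of 2D culture, cardioids without and cardioids with PD173074, with none at 0. In 2D culture the sum was 641 CPM in LUM-independent and 626 in LUM-dependent members. In LUM-dependent members of the cardioids the sum was 9627 without and 8353 CPM with PD173074. PDGFRA, a receptor of fibroblast precursors, was at 15.4 and 16.8 CPM there, against 110 in LUM-independent members of 2D culture, and TWIST1, a mesenchymal transcription factor, was at 40.2 and 25.5 against 110 CPM. By these genes the fibroblast label holds for most members of 2D culture and most LUM-independent members of cardioids without PD173074. Cluster 6 of the clustering below, 122 of the 557 and 13 of the 56 cells, has 9 of 15 cardiomyocyte genes among its 100 leading genes. It has 0 fibroblast identity genes there, but leading genes are ranked against the other members. Genes at a like level in both cannot rank, so that 0 does not bear on the label. COL1A1 was at 7286 CPM in cluster 6, against 6936 in cluster 1 and 13746 in cluster 3. Whether the label holds for cluster 6 was not tested. The data go against the label for most LUM-dependent members of both cardioids. Those are called LUM-dependent, KRT19 and GABRP cells below. They overlap with the GABRP and VTCN1 epithelial cells of these samples: thinned to 2000 UMIs, 69.5% of LUM-dependent members of cardioids without and 75.1% of those with PD173074 had a GABRP UMI, against 0.137% and 1.96% of cells above the TNNT2 and MYH6 limit. Those members had a median of 6565 and 9528 UMIs at full depth, and the cells above the limit 5513 and 6518. At full depth the shares were 78.9% and 80.0%, against 0.227% and 2.60%.

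**Figure D3:**
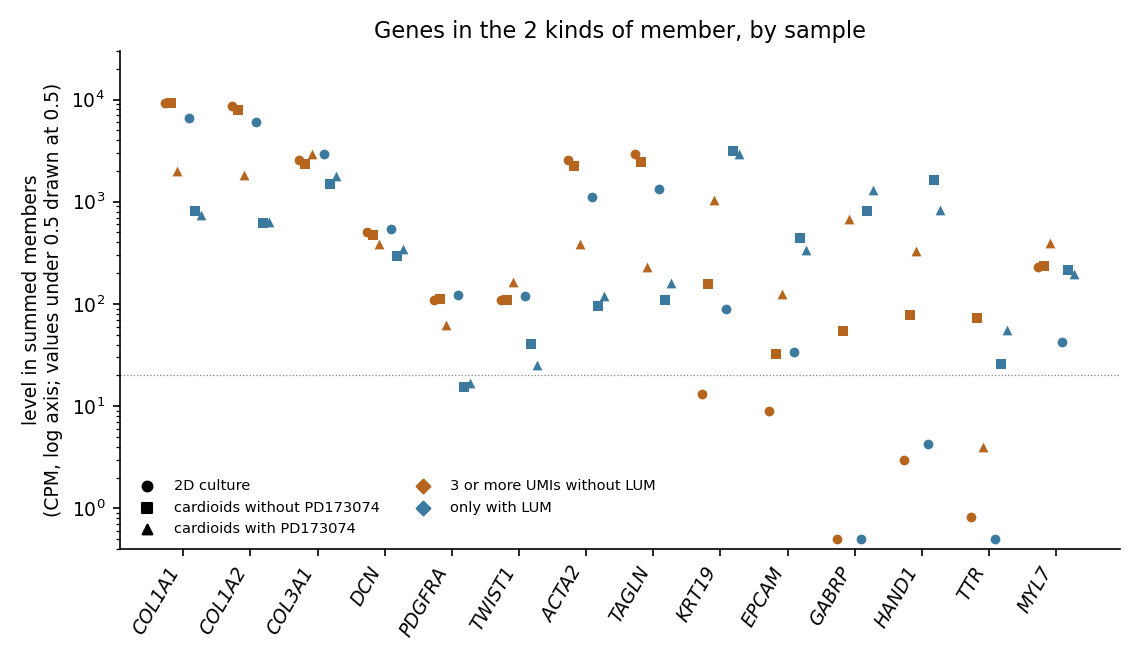
Level of 14 genes in summed members (CPM, log axis, values under 0.5 drawn at 0.5) by kind (colour) and sample (symbol); the dotted line is the floor of 20 CPM used for comparisons. KRT19 is at 3118 and 2935 CPM in LUM-dependent members of the cardioids and COL1A1 at 9222 and 9250 CPM in LUM-independent members of 2D culture and of cardioids without PD173074.

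Few members of 2D culture or of cardioids without PD173074 had high counts of both COL1A1 and KRT19. In 2D culture 504 of 557 members had 20 or more COL1A1 UMIs and 3 had 5 or more KRT19 UMIs, with 1 cell in both sets. In cardioids without PD173074 the counts were 55, 84 and 3 of 151. In cardioids with PD173074 they were 111, 396 and 42 of 529 (7.94%), so 42 of the 111 members with high COL1A1 also had high KRT19. These cut-offs were set after the values were seen.

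Markers of blood and endothelium were low in members, whereas those of some other lineages were not. The 10 blood genes summed to 3.97, 5.45 and 6.30 CPM with 6, 8 and 4 of them at 0, and PTPRC, the pan-leukocyte gene, was at 0.159 CPM or below in 2D culture and cardioids without and at 2.68 CPM in cardioids with PD173074. The 11 endothelial genes summed to 103, 70.9 and 68.9 CPM with 3, 6 and 1 of them at 0, and PECAM1 had no UMI in members of 2D culture or of cardioids without PD173074. WT1, the epicardial transcription factor, had none in those samples either and stood at 0.315 CPM in cardioids with PD173074. TCF21, also an epicardial and fibroblast precursor factor, was at 2.86, 16.9 and 34.5 CPM. The 15 cardiomyocyte genes summed to 1987, 1631 and 1070 CPM with 0, 1 and 0 of them at 0, and MYL7, a cardiac myosin light chain, was at 222, 225 and 228 CPM in members against 1640, 2506 and 6559 in the other cells. The 15 genes of the epicardial list, KRT19 and KRT7 among them, summed to 152, 1741 and 2875 CPM in members against 167, 298 and 516 in other cells, and KRT19 alone was 1523 and 2636 CPM of the sum in members of the cardioids without and with PD173074. The 10 endoderm genes summed to 16.04, 690 and 138 CPM in members and to 70.1, 153 and 147 in other cells. In cardioids without PD173074 the sum was 1130 CPM in LUM-independent members, where several liver genes came from 1 cell each, as given below. The 11 neural crest and Schwann genes were at 87.0, 206 and 276 CPM in members and at 46.6, 40.9 and 64.5 in other cells. The part of free RNA or of joined droplets in these values was not tested.

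Clustering of the 1237 members without the genes of the rule gave 8 clusters, numbered by size. Clusters 1, 3 and 6 held 549 of the 557 members of 2D culture (98.6%), 49 of 151 of cardioids without (32.5%) and 2 of 529 of cardioids with PD173074 (0.4%). Clusters 2 and 5 held none of 2D culture, 55 of cardioids without (36.4%) and 345 of cardioids with PD173074 (65.2%). With 1 library per group, a cluster that is mostly of 1 sample cannot be told apart from that library. Leading genes below are descriptions, since the clusters were made from them.

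Cluster 1 (259 cells, 235 of 2D culture, 23 of cardioids without and 1 of cardioids with PD173074) was led by SBSPON, CBLN2, PIEZO2, a stretch-gated ion channel, and GAP43. Its CRYAB, a small heat shock protein, was at 1980 CPM, and COL8A1 and ELN stood at 1329 and 920 CPM. Cluster 3 (205 cells, split 192, 13 and 0) had the highest COL1A1 of the clusters, at 13746 CPM, with PENK, the enkephalin precursor, at 11462 CPM, LOX at 914 and MGP, an inhibitor of calcification, at 4893 CPM. FAP, a protease of activated fibroblasts, was at 136 CPM in it. Cluster 6 (136 cells, split 122, 13 and 1) combined COL1A1 at 7286 CPM with genes of heart muscle, TTN at 1084 and PLN at 273 CPM, and 9 of the 15 cardiomyocyte genes were among its 100 leading genes. Its cells had a median of 14209 UMIs, the highest of the clusters. What part cells joined in 1 droplet have in it was not tested.

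Cluster 4 (159 cells, split 1, 20 and 138) held the stromal cells of cardioids with PD173074. TCF21 was at 140 CPM, POSTN, a matrix protein of valves and activated fibroblasts, at 627, MSX1 at 243, PRRX1 at 579 and TWIST1 at 184 CPM, with COL1A1 at 2354 and COL3A1 at 3356 CPM. KRT19 stood at 178 CPM there. It took 47 of the 69 LUM-independent members of cardioids with PD173074, and 5 of the 56 of cardioids without. LUM-dependent members of cardioids with PD173074 also fell in it, 91 of 460.

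Clusters 2 (251 cells, split 0, 45 and 206) and 5 (149 cells, split 0, 10 and 139) were the KRT19 and GABRP cells. KRT19 was at 4364 and 2888 CPM and GABRP at 1535 and 1741 CPM. LUM itself was at 1152 and 806 CPM, against 1185 in cluster 3 and 676 in cluster 1, and COL3A1 was at 1352 and 1843 CPM. TWIST1 was at 0.474 CPM in cluster 2 and PDGFRA at 1.42 CPM. The claudins CLDN4 and CLDN6, tight junction proteins, stood at 735 and 481 CPM in cluster 2. Cluster 5 was set apart by RARB, a retinoic acid receptor, at 183 CPM and NR4A3, an immediate early nuclear receptor, at 594 CPM.

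Cluster 7 (55 cells, split 6, 11 and 38) was led by mitotic genes, with TOP2A at 604 and MKI67 at 345 CPM, and its KRT19 was at 2527 CPM. Cluster 8 (23 cells, split 1, 16 and 6) was led by LGALS4, and held the gut and liver genes FABP1 at 834, TTR at 734 and APOA1 at 562 CPM. It met the rule through LUM at 506 CPM with COL1A1 at 88.0 CPM, and all 23 of its cells were LUM-dependent. These members cross the liver- and gut-like endoderm cells of the same samples, but some endoderm RNA also lay outside cluster 8. In cardioids without PD173074 the 10 endoderm genes summed to 1130 CPM in LUM-independent members and 176 in LUM-dependent ones. None of those LUM-independent members was in cluster 8. Among them SERPINA1, AHSG, ALB, APOA2 and TTR each came from 1 cell, so the sum does not describe the kind as a whole.

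**Figure D4:**
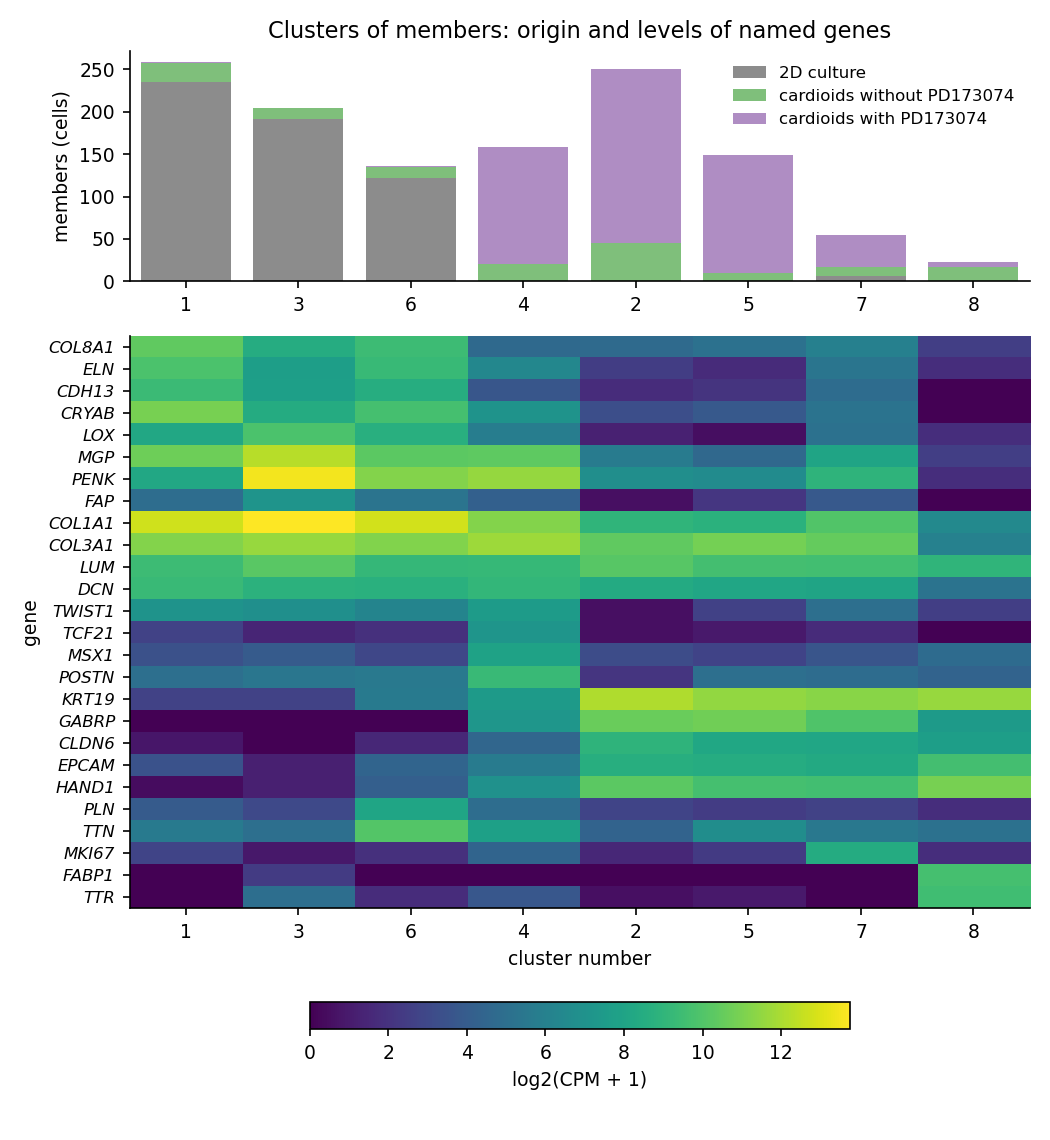
Upper panel: number of members per cluster, coloured by sample. Lower panel: level of named genes in each cluster as log2(CPM + 1), with clusters 1, 3 and 6 on the left. LUM is high in nearly all columns, whereas COL1A1 ranges from 88.0 CPM in cluster 8 to 13746 in cluster 3 and KRT19 is at 4364 CPM in cluster 2.

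Members were next set against all other cells of their sample, which is the contrast the rule used, so nothing is read from it. A gene was called where it reached 20 CPM in the higher set and its whole counting interval lay beyond 2-fold. In 2D culture 9.18% of tested genes were higher and 15.7% lower in members. The shares were 9.22% and 9.57% in cardioids without, and 8.32% and 13.7% in cardioids with PD173074. In every sample 188 of 7419 genes (2.53%) were higher and 519 (7.0%) lower.

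The genes higher in every sample that lie outside the rule included COL12A1, a collagen that decorates type I fibrils, at 145, 112 and 112 CPM in members of 2D culture, cardioids without and cardioids with PD173074, against 7.88, 4.93 and 6.77 CPM in other cells. FN1, fibronectin, was at 8480, 5675 and 1801 CPM against 313, 168 and 166. TGFBI, a TGF-beta induced matrix protein, was at 110, 192 and 306 CPM against 8.06, 7.21 and 19.2. ANXA1, a phospholipid-binding protein, was at 779, 963 and 1110 CPM, DLK1, a regulator of mesenchymal differentiation, at 386, 1150 and 2199 CPM, and EPAS1, the hypoxia factor HIF-2 alpha, at 23.2, 254 and 693 CPM. SCG2, ARSJ, CDKN2A, GLIPR1, CEMIP, VGLL3, RND3, PDLIM2, KLF4, PTPRT, EDN1 and RGS10 completed the 20 with the highest smallest ratio, beside LUM and COL8A1 of the rule. When the reference was the other cells below the TNNT2 and MYH6 limit, 30 genes were higher and 128 lower in every sample. Against cartilage-gene cells the counts were 28 and 83. The first reference holds 688, 334 and 712 cells and the second still fewer, which widens the intervals. The number of genes tested in every sample was not counted for them, so these counts cannot be set against those above.

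Cartilage-gene cells, which had 3 or more UMIs of ACAN, MATN4, COL9A1 and COL9A2, numbered 226, 78 and 165 and were the nearest neighbours by matrix genes. Their COL1A1 was at 5169, 3629 and 1768 CPM, so in cardioids with PD173074 it was higher than in members (943 CPM), and lower in the other samples. Their LUM was at 814, 692 and 296 CPM. MGP was at 7379, 3332 and 1711 CPM in them against 2744, 921 and 345 in members, and KRT19 was at 5.91, 44.9 and 146 CPM.

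Between the cardioid samples, members with PD173074 had far less type I collagen RNA than members without. The elastic fibre list summed to 1639 CPM with against 2828 without PD173074, and the contractile list to 4236 against 8519. In LUM-dependent members both sums were higher with PD173074, at 1568 against 1336 and 4258 against 3315 CPM. Of 7779 genes tested 112 were higher (1.44%) and 327 lower (4.2%). COL1A1 was lower by a log2 ratio of -2.51 (interval -2.55 to -2.46). ACTA2 and TAGLN, actin and an actin-binding protein of contractile stroma, stood at 162 and 172 CPM with PD173074 against 1236 and 1383 without, and TPM2 at 84.8 against 614. COL3A1 did not pass, with a log2 ratio of 0.02 (interval -0.04 to 0.07), nor did LUM (-0.19), nor DCN (-0.15). The summed RNA was scaled to its total; with TMM factors the counts were 163 and 267, and with the median ratio set to 1, 150 and 288. The median of all tested genes was -0.12.

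The lists fixed for this report showed the same division. Of the 11 measured contractile genes 8 were lower (median log2 ratio -1.75), of 14 elastic fibre genes 7 lower and 1 higher (median -1.24), and of 7 fibrillar collagens 3 lower (median -0.64). The 1 elastic fibre gene that was higher was FBLN1, fibulin 1, at 696 against 289 CPM. Of 24 immediate early genes, which also respond to dissociation, 10 were higher (median 0.98): FOS was at 4143 against 1907 CPM and EGR1 at 610 against 270. Of 11 epithelial genes 1 was higher and 1 lower. Of 10 retinoic acid genes 4 were higher and 1 lower, with CRABP1, a retinoic acid binding protein, at 976 against 343 CPM. The kinds of member differed between these samples as given above, and the same comparison within a kind follows.

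The highest called genes were LGALS4, TSPAN8, FABP1, MYO3B, AGR2, PLD5, AGR3, HS6ST2, PTGS2 and NR4A3. FABP1 and LGALS4, of gut epithelium, came from 6 and 7 cells, and 1 cell held 60.3% of the TSPAN8 and 72.6% of the AGR2 UMIs, whereas NR4A3 (344 against 86.1 CPM) was seen in 286 members with PD173074. The lowest were MAP3K7CL, CRH, ALB, NNMT, APOC3, PTX3, ITGBL1, MX1, SBSPON and TNFRSF11B. ALB came from 1 cell of cardioids without PD173074 and 68.6% of the CRH UMIs from 1 cell. MAP3K7CL was spread over 29 of the cells without PD173074, at 57.2 CPM, against 1 UMI in all members with it (log2 ratio -8.51, interval -13.8 to -6.00).

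Members of cardioids without PD173074 were set against those of 2D culture, and 421 of 7621 genes were higher (5.52%) and 9 lower (0.118%). With TMM factors these counts were 316 and 55, and with the median ratio set to 1 they were 339 and 33. Without cluster 8, that of liver and gut genes, they were 320 and 4. Genes of the KRT19 and GABRP cells were among those higher. KRT19 was at 1523 against 15.9 CPM, a log2 ratio of 6.58 (interval 6.30 to 6.89), and 10 of 11 epithelial genes were higher. SFRP2, a secreted WNT modulator, and GABRP had no UMI in members of 2D culture, and against a floor of 3 UMIs over those members they were at least 1435-fold and 848-fold higher. SERPINA1, TCIM, SPNS2, GRHL2, VTCN1, AHSG, CDH1 and NECTIN4 were the others of the 10 highest, and SERPINA1 and AHSG came from 2 cells each. The 9 lower genes were EPHA5, ACTG2, MIA, DNM3OS, RPRML, MGP, TM4SF1, MAP3K7CL and LGALS1. No gene of the lists of fibrillar collagens, collagen synthesis and crosslinking or small proteoglycans was lower at this scaling, but with TMM factors COL1A2 (log2 ratio -1.16), ELN (-1.18), LOX (-1.30), ACTA2 (-1.26) and TAGLN (-1.31) were. COL1A1 was below 0 without passing, at -0.77 (interval -0.80 to -0.74).

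Members of cardioids with PD173074 against 2D culture gave the largest count, 841 of 7660 genes higher (11.0%) and 654 lower (8.54%). This comparison shares its samples with the other two, so the counts are not independent. SFRP2 was at 1812 and GABRP at 1195 CPM with PD173074, at least 3804-fold and 2507-fold above the floor of 3 UMIs in 2D culture. The next were TCIM, SPNS2, GRHL2, CRABP1, VTCN1, CDH1, PLAC8 and COX4I2. ITGA11 was at 3.31 against 212 CPM, a log2 ratio of -6.00 (interval -6.70 to -5.38), and CDH13, an atypical cadherin, at 6.93 against 432. MAP3K7CL, NNMT, PTX3, CPA4, ITGBL1, SBSPON, STC2 and CBLN2 were the other lowest. Of 14 fibroblast identity genes 10 were lower and 2 higher (median log2 ratio -1.79), and of 23 collagen synthesis and crosslinking genes 13 lower and 1 higher. Of 23 cell cycle genes 15 were higher, none lower, and of 24 immediate early genes 18.

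Within LUM-independent members the 2D culture and the cardioids without PD173074 were close. Of 7215 genes 57 were higher in the cardioids (0.79%) and none lower (0.0%). COL1A1 was at 9250 against 9222 CPM, a log2 ratio of 0.00 (interval -0.03 to 0.04), ACTA2 at 2214 against 2540 and TWIST1 at 110 in both. None of 7 fibrillar collagens, 14 elastic fibre genes, 12 contractile genes, 17 TGF-beta genes and 4 FGF ligand and receptor genes was called. TNC, tenascin C, was the matrix glycoprotein that was higher, at 81.0 against 16.7 CPM. Of the 57 called genes 20 had UMIs in fewer than 5 cells, and 22 had most of theirs in 1 cell. SERPINA1, AHSG, ALB, APOA2 and TTR each came from 1 cell. The 56 cells of the cardioids hold 987882 UMIs, which limits what can be called.

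LUM-independent members of cardioids with PD173074 differed from those without in 383 higher (4.79%) and 238 lower genes (2.98%) of 7988. Different clusters hold this kind in the 2 samples: 48 of the 56 cells without PD173074 were in clusters 1, 3 and 6, and of the 69 with it 2 were there, 47 in cluster 4 and 16 in clusters 2 and 5. TCF21 was at 115 against 16.2 CPM, POSTN at 351 against 69.8, COL6A3, a chain of type VI collagen, at 472 against 178 and FBLN1 at 219 against 79.0. Lower were COL1A1, at 2015 against 9250 CPM, FN1, at 1542 against 9275, FBN1, fibrillin 1, at 137 against 690, and TAGLN, at 231 against 2474. COL3A1 (2948 against 2332 CPM) and PDGFRB (72.7 against 76.9 CPM) did not pass. Of 12 contractile genes 7 were lower and none higher, and of 8 fibrillar collagens 4 were lower, COL1A1, COL1A2, COL5A1 and COL11A1. The epithelial list moved with this: 7 of 10 were higher and 1, KRT7, lower. Without the cells of clusters 2 and 5, 310 genes were higher and 209 lower, COL1A1 (2548 against 9340 CPM), TAGLN, TCF21 and POSTN were still called, and of 8 epithelial genes none was higher and 1 lower. KRT19 was then at 256 against 116 CPM and did not pass. Without cluster 6 the counts were 382 and 235, and the cardiomyocyte list, with 2 of 12 genes lower before, had 2 of 9 higher. Of 11 contractile genes 5 were then lower, with a median log2 ratio of -1.10 in place of -1.825. Against 2D culture 740 of 7745 genes were higher (9.55%) and 248 lower (3.2%) in these cells, with the same cells with PD173074 in both comparisons.

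Signalling genes of LUM-independent members were read from the same comparison of cardioids with against without PD173074, where the clusters of the 2 samples differ as just given. Over all genes tested there 4.79% were higher and 2.98% lower, with a median log2 ratio of 0.08. Of 5 FGF ligand and receptor genes measured, FGF2 was lower, at 7.97 against 55.7 CPM, as were FGF10 and FGFRL1, and FGFR2, an FGF receptor typical of epithelia, was higher at 93.6 against 18.2 CPM. FGFR1 was at 102 against 105 CPM. Of 11 genes of FGF and ERK feedback, which ERK signalling induces, EGR1 and ETV1 were higher and none was lower; SPRY2 was at 80.7 against 51.6, SPRED1 at 104 against 57.7 and ETV5 at 13.9 against 30.4 CPM, and none of these passed. Of 18 TGF-beta genes 3 were lower, CCN2, LTBP1 and LTBP2. The cell cycle inhibitors CDKN1A and CDKN2A were at 5.97 and 19.9 CPM against 70.9 and 188, and 8 of 24 cell cycle genes were higher, none lower. This count depended on the clusters: without cluster 6 it was 3 of 24, and without clusters 2 and 5 it was 13 of 27. Of 25 immediate early genes 13 were higher, none lower, with 11 higher without cluster 6 and 12 without clusters 2 and 5.

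LUM-dependent members had few called genes between the cardioid samples. Of 7772 genes 8 were higher (0.103%) and 126 lower (1.62%) with PD173074. COL1A1 was at 741 against 814 CPM, COL3A1 at 1781 against 1491, KRT19 at 2935 against 3118 and GABRP at 1292 against 812, and none of these passed. No fibrillar collagen, elastic fibre, contractile, FGF or immediate early gene was called. Cluster 8 held 16 of the 95 cells without and 6 of the 460 with PD173074, and without it 2 genes were higher and 23 lower. With it the genes lower were led by CRH, MX1, IFIT3, GDF15, IFIT2, CALCA and ISG20. Of 15 interferon and antigen presentation genes 11 were lower (median log2 ratio -2.61): IFI6 was at 11.8 against 312 CPM, BST2, tetherin, at 16.7 against 280 and HLA-B at 10.5 against 98.1. Without cluster 8, 1 of 11 interferon genes was lower (median -0.45): HLA-B was at 10.8 against 38.7 CPM and was still called, whereas IFI6 was at 12.1 against 11.8 and BST2 at 17.1 against 30.3. In cluster 8 itself IFI6 was at 628 and BST2 at 536 CPM. With that cluster these RNAs were held by few cells: IFIT3 by 12 and MX1 by 6 of the 95 cells without PD173074, and 1 cell held 47.4% of the MX1 UMIs. Of 19 hypoxia and glycolysis genes 6 were also lower, among them LDHA at 346 against 826 CPM and VEGFA, and DDIT4, a stress-induced inhibitor of mTOR, was at 18.7 against 390 CPM. Without cluster 8 none of 17 hypoxia and glycolysis genes was called, and LDHA was at 332 against 456 and DDIT4, which was still called, at 18.5 against 67.2 CPM.

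The kinds themselves differed within each cardioid sample. In cardioids without PD173074, LUM-independent members had 471 genes higher (5.63%) and 507 lower (6.06%) than LUM-dependent ones. In cardioids with PD173074 410 were higher (5.34%) and 73 lower (0.951%). Only genes outside the rule bear on this division, since COL8A1, ITGA11, ELN and LOX made it.

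**Figure D5:**
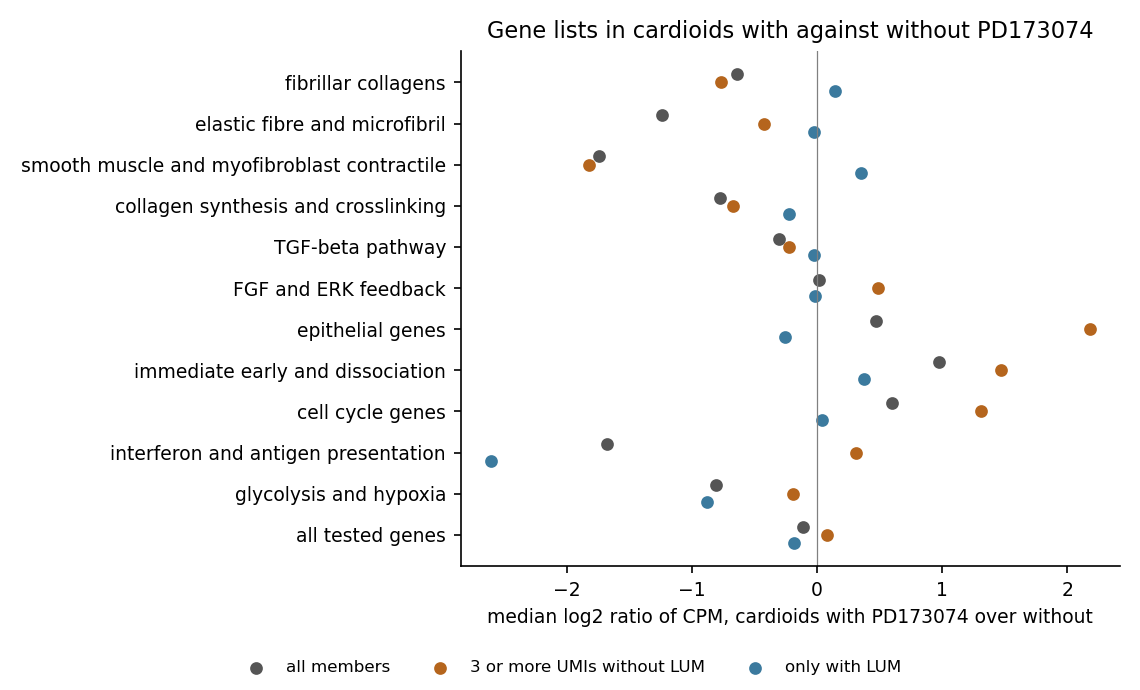
Median log2 ratio of CPM, cardioids with PD173074 over without, of 11 gene lists and of all tested genes, in all members and in each kind; each point is from 1 sample a group and has no replicate error. The contractile list has a median of -1.75 over all members and -1.83 in LUM-independent ones, and the interferon list -2.61 in LUM-dependent ones, or -0.45 without cluster 8.

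Cells of the same cluster differed little between samples, although cells were put together for being alike and few cells leave wide intervals. In cluster 2, 206 cells with against 45 without PD173074 had 1 gene higher (0.015%) and 12 lower (0.18%) of 6676. The higher gene was PENK, with 99.6% of its UMIs in 1 cell. In cluster 4, 138 cells against 20 had 3 higher (0.0354%) and 64 lower (0.756%) of 8470. In cluster 1, 23 cells of cardioids without PD173074 against 235 of 2D culture had 9 higher (0.127%) and 13 lower (0.183%) of 7103. The genes lower in the cardioids there included the muscle genes MYL7, ACTC1, ACTA1 and CNN1.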

How the data were processed

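The deposited matrices hold UMI counts per gene and cell barcode for 11 libraries, which the authors made from the reads. The submitters' processing notes name Cell Ranger 7.0.0 and the build hg38, and settings are not given in the sources used here. Run 1 of each group was used, at 46304366, 23074862 and 37765195 UMIs (2D culture, cardioids without, cardioids with PD173074). No doublet was removed: Scrublet in scanpy 1.11.5 marked 0, 2 and 1 cells (0.0%, 0.0561% and 0.0216%), which was taken as not having worked.

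Counts of members were summed per sample and divided by their total (CPM). Ratios have exact conditional binomial 95% intervals, levels exact Poisson and shares exact binomial (Clopper-Pearson) ones. A group at 0 was set to 3 UMIs over the group for a bound. A gene was tested at 20 CPM in the higher group and called when its whole interval lay beyond 2-fold. Clusters came from leidenalg 0.10.2 on a graph of shared neighbours (2000 variable genes without mitochondrially encoded, ribosomal protein and rule genes, 20 components, 15 neighbours, resolution 0.5, no correction between samples). TMM factors came from edgeR 4.0.16. The call rule was checked on simulated counts.

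The members and the gene lists were chosen with earlier results of these data known. Named genes are those of the rule and COL1A1, the 20 with the highest smallest ratio over samples against other cells, the 10 highest and 10 lowest called genes of a comparison among all members, up to 6 of a list by level or ratio, and the 10 leading genes of a cluster, leaving out mitochondrially encoded, ribosomal protein and clone-named genes in the rankings. Genes named beyond these were chosen after their values were seen. Alternatives were the other runs, other limits, other scalings, other call rules and other cells left out.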

Additional observations from a re-analysis of the deposited data

Results flagged for a closer look

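The fibroblast identity, fibrillar collagen, contractile and epithelial lists were searched for genes called in opposite directions between members and other cells in different samples. The lists hold 22, 9, 16 and 11 genes of the matrices, and this was so for 5 genes. Genes outside those lists were not searched, so the share over all genes is not given and the count is not read as a result. Members against other cells is also the contrast that the rule used, and the rule placed heart muscle cells among the other cells. These differences between samples were not tested, since each group is 1 sample. ACTA2 was called higher in members of 2D culture (log2 ratio 1.56) and lower in those of cardioids with PD173074 (-3.49). In cardioids without PD173074 it was at 0.42 and did not pass. MYLK, the myosin light chain kinase, was at 1.42, 0.98 and -3.37 in 2D culture, cardioids without and cardioids with PD173074. TPM2 was at 1.30, 0.85 and -1.72. The middle values of MYLK and TPM2 did not pass either. KRT19 was lower in members of 2D culture (-2.01) and higher in those of cardioids without (3.63) and with PD173074 (3.78). EPCAM was at -2.26, 1.63 and 1.71. The other cells differ too: their ACTA2 stood at 844, 926 and 1815 CPM and their KRT19 at 64.0, 123 and 192 CPM.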

How the results depend on the processing

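No paired analysis was possible because each group is 1 sample, its libraries being repeat runs of the same droplets. In 2D culture the share of members moved beyond its interval with TNNT2 and MYH6 below 0.05% (5.29%) or 0.5% (7.80%), no cartilage UMI (4.89%), no cartilage limit (8.545%) and 2000 UMIs per cell (6.13%). In cardioids without PD173074 these were 3.58% in run 3, 3.45% with 5 stromal UMIs, 3.48% below 0.05%, 3.45% with no cartilage UMI, 5.33% with no cartilage limit, 2.20% at 2000 UMIs and 1.57% without LUM. In cardioids with PD173074 they were 12.992% with 2 and 9.04% with 5 stromal UMIs, 10.5% below 0.05%, 9.684% with no cartilage UMI, 12.970% with no cartilage limit, 3.99% at 2000 UMIs and 1.49% without LUM.

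Called genes with against without PD173074 (439) were 913 at 2-fold without the interval, 998 at 1.5-fold, 165 at 3-fold and 134 in LUM-dependent members, where leaving out the cluster of liver and gut genes left 25. For without PD173074 against 2D culture (430) they were 220 at 50 CPM, 711 without the interval, 765 at 1.5-fold, 274 at 3-fold, 1150 by the mean of CPM per member and 57 in LUM-independent members. For with PD173074 against 2D culture (1495) they were 943 at 50 CPM, 2390 at 1.5-fold, 883 at 3-fold, 988 in LUM-independent and 763 in LUM-dependent members. The 707 genes called in every sample against other cells were 158 against other cells below the TNNT2 and MYH6 limit and 111 against cartilage-gene cells. Both of these references hold fewer cells, which widens the intervals. Resolution 1.0 gave 15 clusters in place of 8.

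Of 896 values of 23 genes under the alternatives, 8 changed direction. SERPINA1, with 91.9% of its UMIs in 1 of 2 cells, had a log2 ratio of 1.98 with against without PD173074 in run 3. In LUM-dependent members the same ratio turned for COL1A2 (0.032), ITGA11 (0.80), LOX (0.71), PDGFRA (0.13), ACTA2 (0.35) and TAGLN (0.57), none of them called there. TWIST1 turned against 2D culture in LUM-independent members with PD173074 (0.57). The cause of the other changes was not tested. Intervals rest on 1 sample per group and 151 members in the smallest.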

Other observations

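Growth factor and guidance genes of LUM-independent members have not been described above. Of 23 measured, 6 were higher and 1 lower with than without PD173074 (over all genes tested 4.79% were higher and 2.98% lower), with CXCL14, CXCL12, PDGFD, SEMA3A, SEMA3D and MDK higher and KITLG lower. Of 20 WNT genes SFRP2, LEF1 and NKD1 were higher and DKK1 lower. The WNT count depended on the clusters. Without cluster 6, 1 of 19 was higher and 1 lower, and without clusters 2 and 5, 5 of 18 were higher and 1 lower. The valve and cushion genes MSX1, HAS2 and POSTN were higher of 19 measured, and none was lower.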
